A study of Mus musculus with 2 samples.

Results

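Ribosome biogenesis genes make and assemble ribosomes, the host genes of small nucleolar RNAs (snoRNAs) carry the guides for ribosomal RNA modification in their introns, and the Trmt enzymes methylate transfer RNA. Genes of this kind were taken by symbol: all probe sets annotated to exactly 1 gene whose symbol starts with Snhg, Trmt, Polr1, or with Utp, Rrp or Nop and a number, plus Gas5, Bop1, Pes1, Wdr12, Ncl, Npm1, Fbl, Dkc1, Nolc1, Nob1, Gnl3 and Ubtf. The rule found 75 genes of 18193 on the array, covered by 158 probe sets (groups of short probes against 1 transcript). The rule uses names alone, but the genes were chosen on a measured value in so far as the PP1 to DMSO signal ratios of these arrays were already known when they were put together. Their ratios are therefore a description, and no test is made of them.

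The data were 2 Affymetrix arrays of primary osteoblasts, which lay down bone, taken from the calvaria (skull vault) of CD1 mice aged 7 days. The PP1 culture had 24 h without serum and then 24 h with 2 µM PP1, an inhibitor of c-Src and related tyrosine kinases. The DMSO culture had the same serum-free period and then vehicle for 24 h. Both cultures were held in medium with bovine serum albumin in place of serum, so neither is a growing culture in serum, and how many animals were pooled is not given in the sources used here. Each condition had 1 array without a replicate, which limits the precision of every value, so that no test could be made and no p-value appears.

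A ribosome starts in the nucleolus, where RNA polymerase I transcribes a long precursor RNA. A large assembly called the small subunit processome, with the UTP proteins, cuts and folds one part of it, while factors such as the PeBoW complex act on the large subunit part. The snoRNAs guide methylation of the precursor by box C/D particles, built on fibrillarin, and its pseudouridylation by box H/ACA particles, built on dyskerin. In cells that build bone matrix, ribosomes carry the synthesis of collagen and other secreted proteins.

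The PP1 array was dimmer as deposited, and its signals were raised by a factor of 1.68, which equals the means of the arrays after 2% was trimmed at each end. Signals here are on that scale, in MAS5 intensity units. Every direction is therefore relative to the bulk of genes. Signals under a floor of 31.7, the median over the probe sets of the arrays, took the value of the floor before log2 was applied. A gene was represented by its brightest probe set and counted as measured when that one exceeded the floor with PP1, with DMSO or with both. This held for 72 of the 75 genes and 12111 genes in all, while Snhg11, Trmt12 and Trmt9b were under the floor on both arrays. The log2 ratio is PP1 minus DMSO. The SD between probe sets, pooled around the mean log2 ratio of each gene, was 0.41 over 4745 genes. It was 0.47 over the 30 genes of the present set that allow it. This spread comes from the same 2 arrays. It holds no variation between cultures and is not a replicate error.

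With PP1, 64 of the 72 measured genes had a log2 ratio below 0, against 49.0% of all measured genes. The median was -0.38, with quartiles of -0.66 and -0.16, against 0.01 (quartiles -0.25 and 0.30) over all measured genes. The differences were small ones: 24 genes were at least 1.5-fold lower (7.37% of all measured genes were) and 0 were at least 1.5-fold higher (10.6% of all measured genes). At 2-fold, 4 genes were lower (1.55% of all) and 0 were higher (2.97% of all). The 4 were Nob1, Trmt61a, Nop56 and Snhg3. With the floor at the 75th percentile, Trmt61a (-0.13 relative to all measured genes) and Snhg3 (-0.36) were no longer 2-fold lower, and Nop56 was not by the median over its probe sets (-0.47) or without its shared one (0.19). A log2 ratio further below 0 than the SD between probe sets was found for 34 of the 72 genes (14.2% of all measured genes), and one further above 0 for 1 gene (17.7% of all), while 37 lay within that SD of 0. Because the set was assembled with this comparison in view, the background shares are given for scale only. In bulk RNA, fewer cells of a type and less RNA per cell cannot be told apart.

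**Figure D1:**
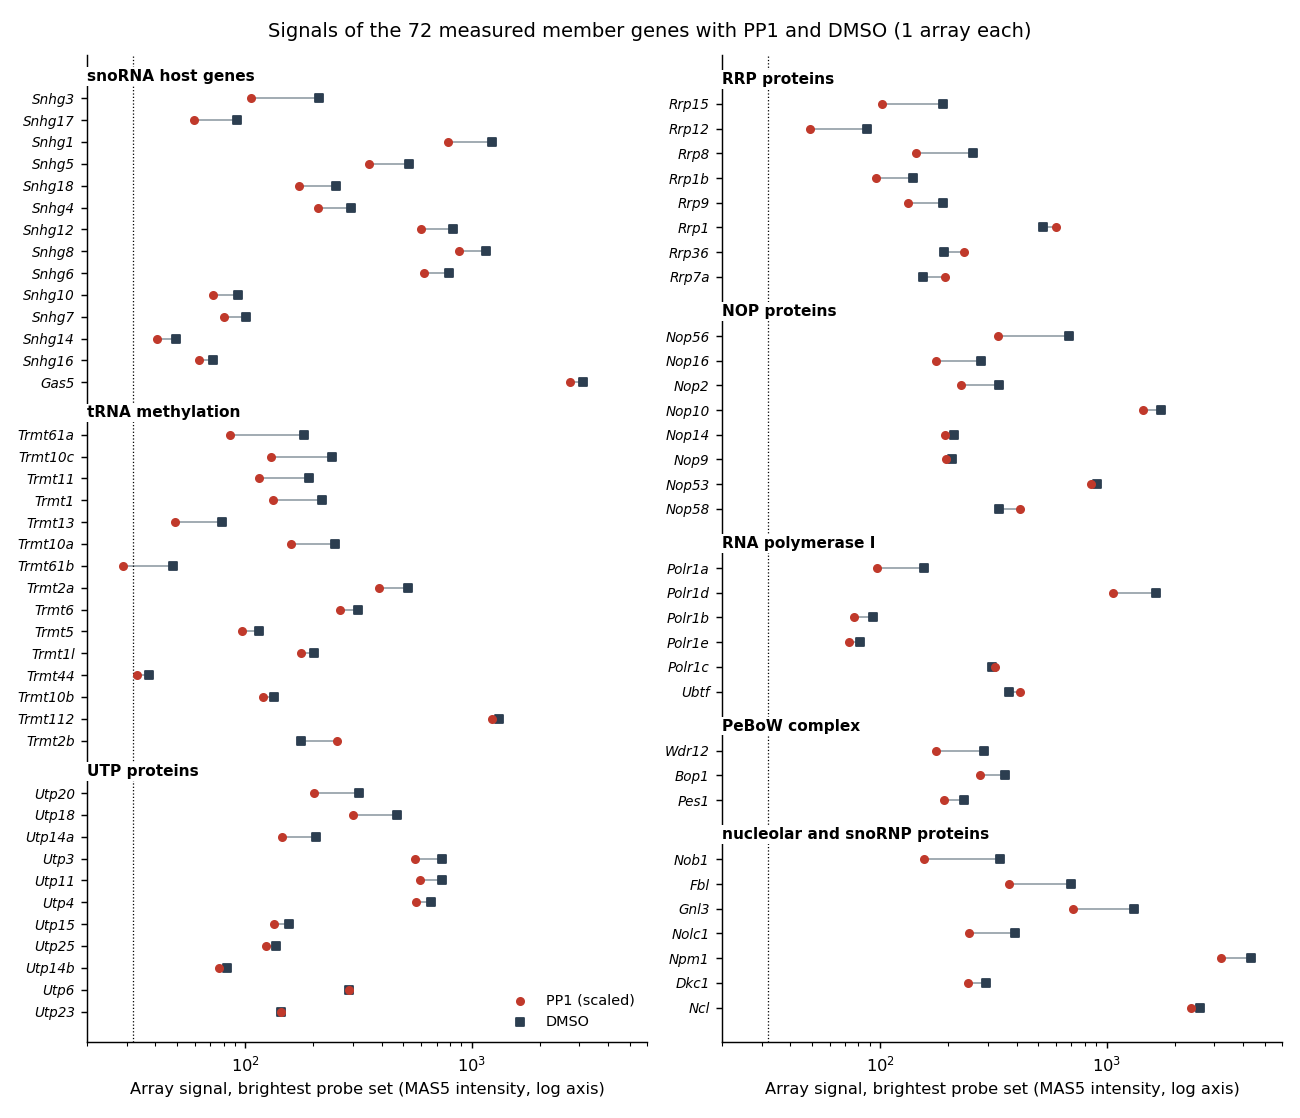
Array signal (MAS5 intensity, log axis) of the brightest probe set of each of the 72 measured genes, with PP1 as circles (scaled) and DMSO as squares, ordered within each role by log2 ratio; the dotted line is the floor of 31.7. The PP1 circle lies left of the DMSO square in 64 genes, and right of it in 8.

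**Figure D2:**
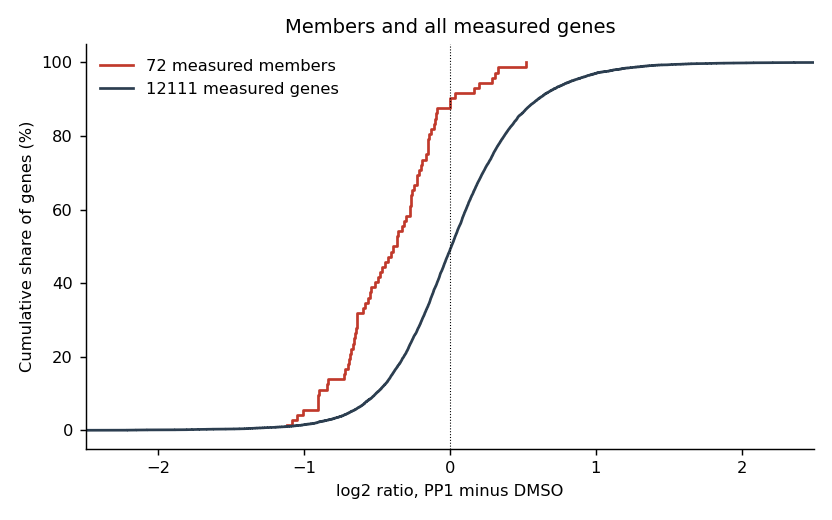
Cumulative share of genes (%) by log2 ratio, PP1 minus DMSO, for the 72 measured genes of the set and for the 12111 measured genes. The curve of the set lies to the left, with a median of -0.38 against 0.01, and ends at 0.52.

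The scale of the arrays touches every value. As deposited, the trimmed mean was 94.1 with PP1 and 158 with DMSO, and the median of all measured genes moved by -0.71. On those values all 72 genes were below 0 and 45 were at least 2-fold lower, but 92.4% of all measured genes were below 0 too. Relative to the median of all measured genes in that setting, 65 of the 72 genes were lower, the same number as after scaling. Scaling by 1 factor can change this number only through the floor, so the match adds nothing. Of the osteoblast markers, 7 of the 10 listed were named on the array and all 7 were measured, with a summed signal of 37473 with PP1 and 29069 with DMSO. Col1a1, Col1a2 and Sparc carried that sum, while Ibsp (37.7 with PP1 and 159 with DMSO), Sp7 (-0.43) and Postn (-0.12) were lower with PP1. Runx2, Bglap and Spp1 had no probe set under these names in the annotation used. All 7 macrophage markers were measured too (sum 9919 with PP1 and 7783 with DMSO). Lyz2 (0.36) carried most of that sum. Mrc1 (1.11), Cd68 (0.73) and Adgre1 (0.40) were higher with PP1 as well, while C1qb (-0.76), C1qa (-0.56) and Csf1r (-0.01) were lower. Of the adipocyte markers, 4 of 5 were measured (sum 3637 with PP1 and 2577 with DMSO). The 5 skeletal muscle markers summed to 691 with PP1 and 641 with DMSO, Ckm under the floor included. Most of that was Acta1 (-0.29), while Des was at 1.43, Myog at no less than 1.37 and Myod1 at no less than 0.64, both under the floor with DMSO. The 5 cartilage markers summed to 4127 with PP1 and 4768 with DMSO, Matn1 under the floor included. Acan (-1.18), Comp (-0.56) and Col2a1 (-0.14) were lower with PP1, and Sox9 (0.47) was higher. Endothelial markers were at a sum of 161 with PP1 and 118 with DMSO, with Pecam1 and Emcn, both under the floor, included, and the red cell genes Hba-a1 and Alas2 were under the floor. As a sign of RNA integrity, signals from the 3' end of control transcripts were set against those from the 5' end on the log2 scale; PP1 minus DMSO, this measure was -0.51 for Gapdh, -0.34 for Pcx and 0.14 for Actb. The part of these other cell types and of RNA integrity in the ratios below was not tested.

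The snoRNA host genes were lower with PP1 throughout by their brightest probe sets. Their spliced RNA is mostly non-coding, and many belong to the class of transcripts that begin with a C and a run of pyrimidines, the 5' terminal oligopyrimidine (TOP) tract, which ribosomal protein mRNAs share and which couples translation to mTOR signalling. The stretch from 50 bases before to 30 bases after the annotated start is shown for 6 of them, from RefSeq (GRCm38.p6), because the class is defined by the start of the transcript. Capitals mark the pyrimidine tract where the rule found one, namely a C within 5 bases of the start followed by at least 4 further C or T. The stretches lie at chr1:161035116-161035195 (plus strand) for Gas5, chr2:26640215-26640294 (minus) for Snhg7, chr3:123508307-123508386 (minus) for Snhg8, chr4:132308628-132308707 (plus) for Snhg12, chr19:8723437-8723516 (plus) for Snhg1 and chr9:88522868-88522947 (minus) for Snhg5.
Gas5: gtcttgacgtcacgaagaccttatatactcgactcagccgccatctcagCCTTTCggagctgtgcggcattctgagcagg
Snhg7: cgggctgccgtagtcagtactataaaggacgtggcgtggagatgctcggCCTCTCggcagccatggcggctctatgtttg
Snhg8: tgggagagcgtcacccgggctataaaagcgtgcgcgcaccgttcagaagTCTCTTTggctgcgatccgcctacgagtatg
Snhg12: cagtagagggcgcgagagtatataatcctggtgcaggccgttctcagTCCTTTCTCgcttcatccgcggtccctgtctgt
Snhg1: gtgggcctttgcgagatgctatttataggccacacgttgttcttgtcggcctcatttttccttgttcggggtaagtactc
Snhg5: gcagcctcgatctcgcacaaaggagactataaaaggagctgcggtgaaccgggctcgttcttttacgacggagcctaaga

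All 4 stretches with capitals have the tract across the annotated start itself. Of the 12 measured host genes with a promoter in the table, 7 held such a start (58.3%), against 31.7% of the 60 measured genes of the set with a promoter. The share was 24.0% of the 9780 measured genes with one and 21.2% of all 27025 genes with one. A gene counted if any of its windows held such a start. Of all 32851 windows taken singly, 18.3% did. Such a start was not particular to the host genes, since 5 of 8 UTP genes held one too (62.5%). The other 3 host genes were Snhg3, Snhg10 and Snhg18. A match is a description of letters near an annotated start, and where the start is annotated a few bases off, a tract is missed.

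All 14 measured host genes had a log2 ratio below 0, from -1.01 to -0.19, with a median of -0.43. Snhg3, a host of H/ACA snoRNAs, had a signal of 106 with PP1 and 212 with DMSO, 2.01-fold lower. Snhg17 had 59.0 with PP1 and 91.9 with DMSO, 1.56-fold lower but close to the floor. Both rested on 1 probe set. Snhg1, the host of a run of box C/D snoRNAs, gave 788 with PP1 and 1227 with DMSO, 1.56-fold lower. Its 5 probe sets all had a ratio below 0, with 4 of them between -0.71 and -0.61 and 1 at -0.02, which makes it the best covered of the lower host genes.

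Snhg5 gave 354 with PP1 and 530 with DMSO, a log2 ratio of -0.58. Snhg18 gave 172 with PP1 and 252 with DMSO (-0.55), and Snhg4 209 with PP1 and 292 with DMSO (-0.48). The bright hosts Snhg12, Snhg8 and Snhg6, with DMSO signals from 796 to 1160, lay at -0.46, -0.39 and -0.37, each from a single probe set. These are differences of the size of the spread between probe sets. The dim hosts Snhg7 (-0.32) and Snhg14 (-0.27) were on the same side.

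Gas5, named for its accumulation in growth-arrested cells and the host of many box C/D snoRNAs, was the brightest host, with a signal of 2720 with PP1 and 3110 with DMSO, a log2 ratio of -0.19. Its 4 probe sets agreed on the side but not on the size: -0.19, -0.09, -0.60 and -1.41, the last from 179 with PP1 and 474 with DMSO. The 2 bright probe sets, with signals from 2650 to 3110, had the smallest ratios and the 2 dimmer ones the largest. Snhg16 showed the same kind of gap, with -0.21 by its brighter probe set, while the other, close to the floor, had 33.7 with PP1 and 67.6 with DMSO. Snhg10 was the only host with probe sets on both sides: -0.36 and -0.35 by 2 of them and at least 1.07 by another, which was under the floor with DMSO.

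The 7 genes grouped here as nucleolar and snoRNP proteins, not all of which bind snoRNAs, had the lowest median of the 8 roles, -0.68. All 7 were below 0, though with the median over each gene's probe sets the group median was -0.32 relative to all measured genes. Nob1, the endonuclease that makes the last cut of small subunit ribosomal RNA, had 156 with PP1 and 339 with DMSO, 2.17-fold lower, the lowest ratio of all 72 genes and from 1 probe set. Gnl3 (nucleostemin), a nucleolar GTPase of proliferating and stem cells, had 711 with PP1 and 1329 with DMSO, 1.87-fold lower, also from 1 probe set. Fibrillarin (Fbl), the methyltransferase of box C/D particles, had 370 with PP1 and 693 with DMSO, 1.88-fold lower. Its second probe set, at 421 and 484, gave only -0.20, and the brighter one carries the suffix for probes that can bind more than 1 transcript.

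Nolc1, a snoRNP chaperone that shuttles between nucleolus and Cajal bodies, had 246 with PP1 and 395 with DMSO (-0.68), while its 2 dimmer probe sets gave 0.18 and 0.36. Dyskerin (Dkc1), the pseudouridine synthase of H/ACA particles, was at -0.27 by its brightest probe set (245 with PP1 and 294 with DMSO), at -1.24 by another (151 and 355) and at 0.18 by a dim one. For both genes the value depends on the probe set.

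The probe sets of the abundant nucleolar proteins Npm1 and Ncl did not all go one way. Nucleophosmin (Npm1), a histone and ribosome chaperone, had 3220 with PP1 and 4376 with DMSO (-0.44), and 0.24 by its other bright probe set. Nucleolin (Ncl), which binds ribosomal RNA precursors, had 2374 with PP1 and 2597 with DMSO (-0.13). Its 5 probe sets ran from -0.21 to 0.89, with 3 below 0. The direction of Npm1 is thus not settled by these arrays.

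**Figure D3:**
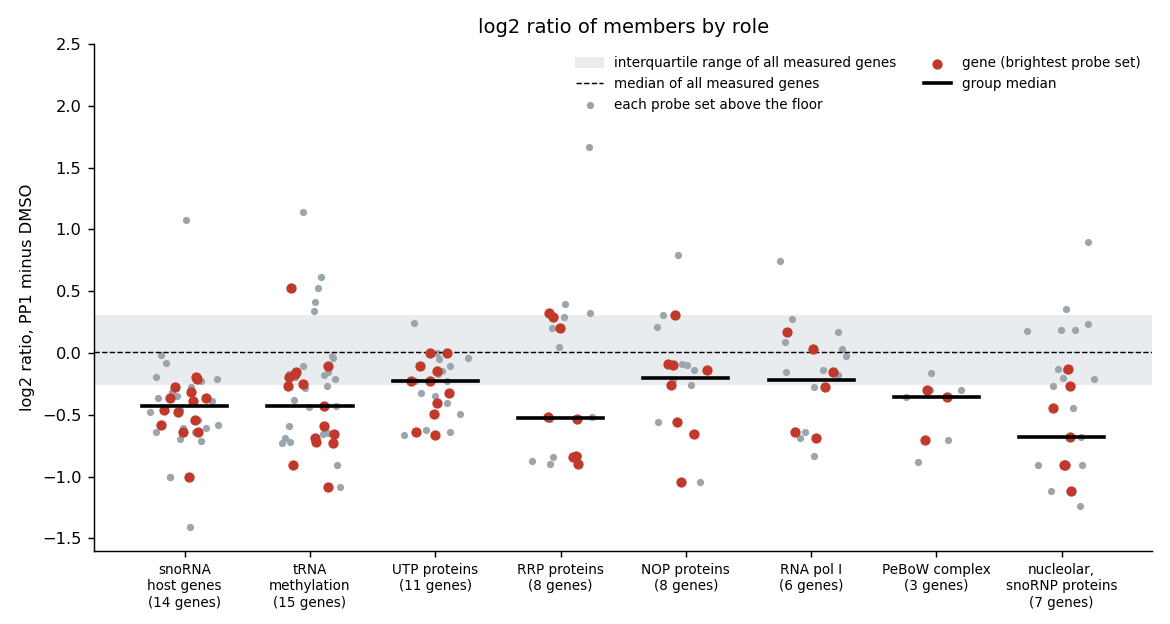
log2 ratio (PP1 minus DMSO) by role: large points are genes by their brightest probe set, small grey points are all probe sets above the floor, thick bars are group medians and the band is the interquartile range of all 12111 measured genes. Group medians run from -0.68 (nucleolar and snoRNP proteins) to -0.20 (NOP proteins), and the high grey points of Rrp1 (1.67), Trmt2a (1.14, a lower bound) and Snhg10 (1.07, a lower bound) belong to genes whose brighter probe sets lie lower.

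The NOP proteins, nucleolar proteins first numbered in yeast, belong to several particles. Nop56, a core protein of box C/D particles, had 330 with PP1 and 682 with DMSO, 2.07-fold lower, but its other probe set, at 251 with PP1 and 217 with DMSO, gave 0.21. Its partner Nop58 was on the other side, with 414 with PP1 and 334 with DMSO, a log2 ratio of 0.31 (below 0 on the deposited scale). With signals as deposited, Nop58 stood at 0.26 relative to all measured genes. The 3 core box C/D proteins in the set, Nop56, Nop58 and fibrillarin, therefore did not go one way. Nop10, of H/ACA particles, was at -0.26 and -0.22 by its 2 bright probe sets.

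Nop16, a nucleolar protein of large subunit assembly, had 177 with PP1 and 279 with DMSO, 1.58-fold lower, and Nop2, a cytosine methyltransferase of large subunit ribosomal RNA, had 226 with PP1 and 334 with DMSO (-0.56). Both rested on 1 probe set above the floor. Nop14 (-0.14) and Nop9 (-0.09), of small subunit assembly, and Nop53 (-0.09, or 0.79 by another probe set), of late large subunit processing, were near the bulk. The group median was -0.20, with 7 of 8 genes below 0.

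The UTP proteins build the small subunit processome and take their names from yeast. All but 1 of the 11 had a log2 ratio below 0, with a median of -0.23, and 2 were at least 1.5-fold lower. Utp20 had 202 with PP1 and 319 with DMSO, 1.58-fold lower. Utp18, of the UTP-B subcomplex, had 299 with PP1 and 466 with DMSO, 1.56-fold lower. Each rested on 1 probe set above the floor.

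Utp14a, which in yeast activates a helicase of the processome, had 146 with PP1 and 205 with DMSO (-0.49). Its second probe set, at 30.1 with PP1, under the floor, and 32.7 with DMSO, gave -0.04 after flooring. Utp3 had 561 with PP1 and 743 with DMSO (-0.41). Utp11 gave -0.33 and -0.35 by 2 probe sets, and Utp15 -0.23 and -0.17. For these 2 genes the probe sets agreed closely. Utp4, of the UTP-A subcomplex that also acts in ribosomal DNA transcription, was at -0.23, Utp25 at -0.15 and Utp14b, an intronless copy of Utp14a, at -0.11. The 3 probe sets of Utp6 ran from -0.05 to 0.24, and Utp23 gave 0.00 and -0.62, so no direction can be given for these.

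The motif CACGTG, the preferred site of MYC and related factors and its own reverse complement, was searched in 300 bases around each start (250 before and 50 after). It was found in 11 of the 60 measured genes with a promoter in the table (18.3%), 11.8% of the 9780 measured genes with a promoter and 8.09% of all 27025 genes with one. Of all windows taken singly, 7.15% held it. Of the 8 UTP genes with a promoter, 5 held it: Utp4, Utp14b, Utp18, Utp20 and Utp25. Of the 12 host genes, 0 held it. The stretch from 80 bases before to 10 bases after the start is shown for 3 genes whose motif lies within it and whose log2 ratios were from -0.65 to -0.56, 1 each of the NOP, UTP and Trmt genes, with the motif in capitals. They lie at chr6:125131803-125131892 (plus strand) for Nop2, chr11:93885757-93885846 (minus) for Utp18 and chr3:138143719-138143808 (plus) for Trmt10a.
Nop2: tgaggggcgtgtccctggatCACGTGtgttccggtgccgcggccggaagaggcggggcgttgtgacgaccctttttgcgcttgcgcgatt
Utp18: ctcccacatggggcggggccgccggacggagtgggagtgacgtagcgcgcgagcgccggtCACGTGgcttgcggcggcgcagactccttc
Trmt10a: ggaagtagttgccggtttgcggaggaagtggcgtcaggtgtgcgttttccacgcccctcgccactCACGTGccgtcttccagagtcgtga

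The motif starts at position -60 in Nop2, -20 in Utp18 and -15 in Trmt10a, counted from the annotated start. Utp14b (position -63), Pes1 (position 3) and Trmt61b (position -9) also held it within such a stretch and are not shown. Their log2 ratios were -0.11, -0.30 and -0.59, the last a bound. Genes with and without it overlapped in log2 ratio: with it, Trmt61a was at -1.08 and Rrp7a at 0.33, and without it, Nob1 was at -1.12 and Nop58 at 0.31. Myc itself had a signal of 244 with PP1 and 493 with DMSO, 2.03-fold lower, from 1 probe set. The MYC network list (10 measured of 11, median 0.09) held Mxd3 at 0.43 and Mga at -0.33, or up to 0.36 by its other probe sets.

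The RRP proteins, named from yeast ribosomal RNA processing mutants, were split into lower and higher genes, with none between -0.52 and 0.20. Rrp15, of large subunit processing, had 101 with PP1 and 189 with DMSO, 1.86-fold lower. Rrp8, which methylates an adenine of large subunit ribosomal RNA, had 144 with PP1 and 258 with DMSO, 1.79-fold lower. Rrp12, an export factor of pre-ribosomes in yeast, had 48.8 with PP1 and 87.3 with DMSO, also 1.79-fold lower but close to the floor.

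Rrp9, a protein of the box C/D particle that directs small subunit cleavage, was at -0.52 (133 with PP1 and 190 with DMSO). Rrp1b, a nucleolar paralog of Rrp1, was at -0.54, but its 3 probe sets ran from -0.87 to 0.05. Higher with PP1 after scaling, and below 0 on the deposited scale except for a dim Rrp1 probe set, were the small subunit factors Rrp7a (193 with PP1 and 154 with DMSO, 0.33 and 0.40 by 2 probe sets) and Rrp36 (234 and 192, 0.29). Rrp1 had 600 with PP1 and 523 with DMSO (0.20), and 1.67 by a probe set at 192 and 60.4. Relative to all measured genes, signals as deposited gave 0.28 for Rrp7a, 0.24 for Rrp36 and 0.15 for Rrp1. The group median was -0.53, with 5 of 8 genes below 0, yet it lay 0.026 above that of all measured genes when the floor was raised to the 75th percentile, which leaves 6 genes.

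The PeBoW complex of Pes1, Bop1 and Wdr12 is needed for large subunit ribosomal RNA maturation. All 3 genes, and both measured probe sets of each, were below 0. Wdr12 had 177 with PP1 and 287 with DMSO, 1.63-fold lower, with at least 0.30 lower on the log2 scale by a second probe set that was under the floor with PP1. Bop1 had 277 with PP1 and 354 with DMSO (-0.36), and Pes1 191 with PP1 and 235 with DMSO (-0.30), or -0.88 by its second probe set at 63.4 and 117. The second probe set of Bop1 was at 1.84 with PP1, under the floor, and at 35.5 with DMSO. For Wdr12 and Bop1 the second probe set passed the floor only through DMSO, which fixed its side.

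RNA polymerase I genes had a median of -0.22 over 6 genes, 4 of them below 0. Relative to all measured genes, that median was -0.67 over the 5 genes left without shared probe sets and 0.075 over the 3 left at the higher floor, so neither its size nor its direction held across settings. The largest subunit, Polr1a, had 96.7 with PP1 and 156 with DMSO, 1.61-fold lower, against 0.27 by a probe set near the floor. Polr1d, shared with RNA polymerase III, had 1067 with PP1 and 1663 with DMSO, 1.56-fold lower, while its 3 other probe sets lay between -0.18 and -0.02. The sizes for both thus rest on the brightest probe set.

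The second largest subunit, Polr1b, was at -0.28 (76.4 with PP1 and 92.6 with DMSO), and Polr1e at -0.15, or -0.83 by its other probe set. Polr1c, also shared with RNA polymerase III, was at 0.03 and 0.09 by 2 probe sets. Ubtf, the factor that holds ribosomal DNA open for transcription, was at 0.17 (414 with PP1 and 369 with DMSO) and at least 0.74 by a probe set under the floor with DMSO. By their brightest probe sets, Polr1c and Ubtf were above 0 only after scaling. Relative to all measured genes, signals as deposited gave -0.01 for Polr1c and 0.12 for Ubtf.

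The tRNA methylation genes had a median of -0.43, with 14 of 15 measured genes below 0 and 7 at least 1.5-fold lower. Relative to all measured genes, the median was -0.44, against -0.21 over the 10 genes left at the higher floor and -0.29 without shared probe sets. Trmt61a, the catalytic subunit of the enzyme that methylates an adenine in the T loop, had 85.8 with PP1 and 182 with DMSO, 2.12-fold lower. Its partner Trmt6 had 263 with PP1 and 316 with DMSO (-0.27), with -0.65 by a second probe set and at least 0.42 by another, which was under the floor with DMSO. Trmt10c, a subunit of mitochondrial RNase P that also methylates mitochondrial tRNA, had 130 with PP1 and 242 with DMSO, 1.87-fold lower. Trmt61a and Trmt10c each rested on 1 probe set above the floor.

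Trmt11, a guanine methyltransferase that works with Trmt112, had 115 with PP1 and 190 with DMSO, 1.65-fold lower, with a second probe set just under the floor with PP1. Trmt112 itself, the activator of several methyltransferases including one of ribosomal RNA, was at -0.11 (1226 with PP1 and 1320 with DMSO). Trmt1, which dimethylates a guanine, had 132 with PP1 and 217 with DMSO (-0.72), but -0.04 and 0.61 by its other probe sets. The direction of Trmt1 depends on the probe set, as does that of Trmt2a, a uracil methyltransferase, whose 4 probe sets ran from -0.43 to at least 1.14, the last under the floor with DMSO.

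Trmt10a, a guanine methyltransferase, had 158 with PP1 and 249 with DMSO, 1.57-fold lower, and its 3 probe sets were all below 0, from -0.65 to -0.02. Trmt13, which methylates a ribose, had 48.9 with PP1 and 78.7 with DMSO (-0.69), with -0.18 by its other probe set. Trmt61b, a mitochondrial adenine methyltransferase, was under the floor with PP1 and at 47.9 with DMSO, which makes it at least 1.51-fold lower. The remaining 4 below 0 with small ratios were Trmt5 (-0.25), Trmt1l (-0.20), Trmt44 (-0.17) and Trmt10b (-0.15). Trmt2b, the mitochondrial counterpart of Trmt2a, was the highest of all 72 genes, with 253 with PP1 and 176 with DMSO, 1.44-fold higher after scaling and lower on the deposited scale. With signals as deposited, Trmt2b stood at 0.48 relative to all measured genes.

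Over the whole set, agreement between probe sets was partial. Of 128 probe sets above the floor, 100 were below 0 (78.1%), against 44.9% of 21219 probe sets of single genes. The median over probe sets was -0.26, against 0.05. More than 1 probe set exceeded the floor for 36 genes, and of these 18 had only ratios below 0 (50%, against 19.6% of such genes overall), 4 only ratios above 0 and 14 had both. A probe set above the floor on 1 array only has its side fixed by the floor. Among the genes with only ratios below 0, this held for the second ones of Bop1, Wdr12, Trmt11, Snhg14 and Utp14a. It also held for the second one of Ubtf, above 0, and for a probe set above 0 of Snhg10, Trmt6 and Trmt2a. Of the 36 genes with a single one, 33 were below 0, with Trmt61b placed there by the floor.

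Other genes of the same pathway, by lists fixed by name with earlier results of these data known, were described in the same way. The other large subunit factors had a median of -0.38, with 32 of 41 below 0 and 14 at least 1.5-fold lower. Among them were Gtpbp4 (-1.09, its 3 probe sets up to 0.79), Mybbp1a (-0.95, or 0.05) and, on the other side, the dim Ftsj3 (1.05). The other small subunit factors had a median of -0.28, with 27 of 34 below 0, including Tsr1 (-0.90, or -0.30), while Tbl3 (0.83) and Nol6 (0.83, or -0.53) were higher after scaling. In the other snoRNP list (median -0.38, 8 of 9 below 0), the H/ACA core proteins Nhp2 (458 with PP1 and 960 with DMSO, -1.07, both probe sets lower) and Gar1 (279 and 523, -0.90) were lower, as was Nufip1 (-0.53).

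The RNA polymerase and exosome lists had medians closer to 0. RNA polymerase II subunits had a median of -0.10 (7 of 11 below 0), with Polr2a at 0.63 (2.66 by its other probe set), Polr2h at -0.44 and Polr2j at -0.27. RNA polymerase III subunits had -0.07 (5 of 9), with Polr3e at -1.31, Polr3f at 0.57 (its 3 probe sets from -0.31) and Polr3b at -0.38. RNA polymerase I initiation factors had -0.04 (4 of 7), with Taf1d, itself a snoRNA host, at -1.07 and all 6 of its probe sets below 0, Taf1b at 0.44 and Tcof1 at -0.42. The RNA exosome, which trims ribosomal RNA precursors, had -0.12 (8 of 13), with Mphosph6 at -1.17, Dis3 at -0.87 and Mtrex at -0.36, or 0.01 by its other probe set.

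The other tRNA modification enzymes had a median of -0.13 (25 of 41 below 0), with the thiolation factor Ctu2 at -1.26 (-0.37 by its other probe set), Mettl1 at -0.92 (its 3 probe sets up to 0.25) and Pus1 at -0.88. Other host or long non-coding RNAs had -0.45 (5 of 7), with the host Zfas1 at -0.68 and Neat1 at 0.82, or -0.28 by its other probe set. Cytosolic ribosomal protein genes, whose products are assembled by this machinery, went the other way, with a median of 0.21 and 33 of 45 above 0. Their extremes, Rpl27a (1.82), Rpl12 (-0.73) and Rpl14 (-0.61), rested on 1 probe set each. Relative to all measured genes, the ribosomal protein median was 0.06 with a loess fit on signal. It was -0.07 over the 21 of 45 genes left without probe sets shared between transcripts. Its direction thus depends on the processing and on which genes are kept.

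**Figure D4:**
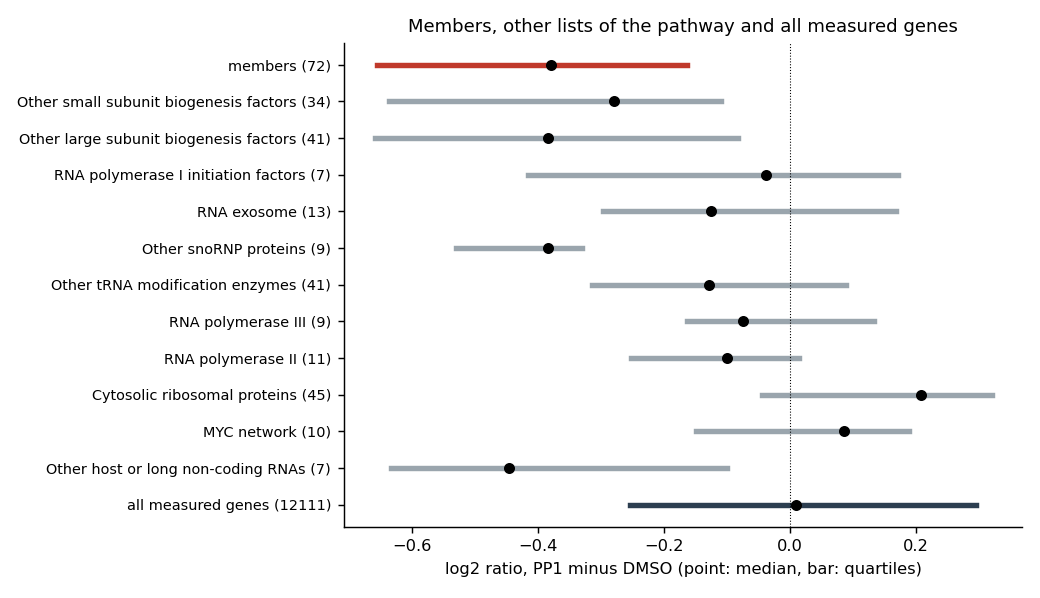
Median (point) and quartiles (bar) of the log2 ratio, PP1 minus DMSO, for the 72 measured genes of the set, 11 other lists and all 12111 measured genes, with the number of measured genes in brackets. The snoRNP and large subunit lists lie at -0.38, as does the set itself, and the ribosomal proteins at 0.21.

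**Figure D5:**
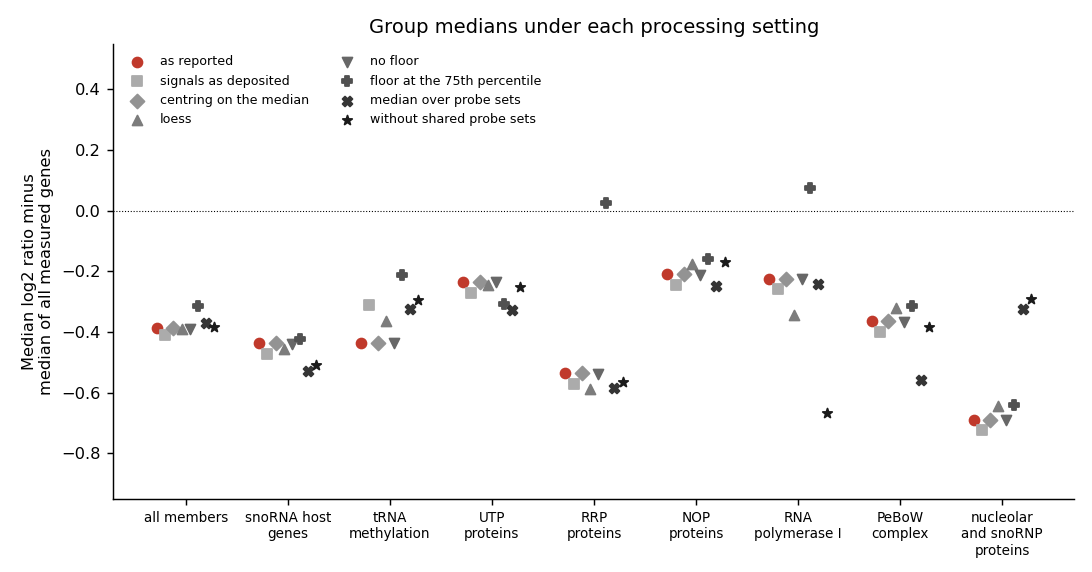
Median log2 ratio minus the median of all measured genes, for the whole set and each role, under the reported setting (red circle) and 7 alternatives. The whole set runs from -0.41 to -0.31, and only the RRP and RNA polymerase I medians cross 0, at the floor of the 75th percentile.

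Among the roles, the host genes and the PeBoW complex stayed below the median of all measured genes under all 7 alternatives, as did the UTP, NOP, nucleolar and tRNA methylation genes. Of the alternatives, centring on the median cannot move such a value, and signals as deposited can only through the floor. The RRP and RNA polymerase I medians went to 0.026 and 0.075 above it with the higher floor, where 6 and 3 genes were left. Whether the roles differ from each other was not tested.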

How the data were processed

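Total RNA from a Trizol extraction became biotinylated cRNA for Affymetrix arrays, per the labels' protocols. The deposited values are linear MAS5 signal intensities, per the submitters' processing notes, with a MAS5 version and target not given in the sources used here. Of 45101 probe sets, 64 were controls, and 34945 of the others had 1 gene, 932 several and 9160 none here. Symbols came from the platform annotation; 34741 gene identifiers matched RefSeq (GRCm38.p6), which changed 0 symbols.

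PP1 signals were scaled to equal 2% trimmed means, floored at the 50th percentile and put on the log2 scale. The brightest probe set (highest mean log2 signal) stood for a gene. Shared probe sets were those whose name ends in _s_at, _x_at or _a_at. Leaving them out dropped genes with no other measured probe set, Gnl3 and Npm1 among them. With 1 array per condition, genes were counted at 2-fold and 1.5-fold. Named were all genes of the set and the 3 largest ratios of each of 11 other lists, with Myc. The set and all lists were chosen with earlier results of these data known. The steps were checked on simulated data. Python 3.11.15, numpy 2.4.6, pandas 2.3.3, statsmodels 0.14.6 and matplotlib 3.10.9 were used.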

Additional observations from a re-analysis of the deposited data

How the results depend on the processing

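Values here are relative to the median of all measured genes. The median of the set was -0.39 as reported and ran from -0.41 to -0.31, the smaller shift with the floor at the 75th percentile, which leaves 53 genes. That floor gave -0.21 for tRNA methylation, 0.026 for RRP proteins and 0.075 for RNA polymerase I. For tRNA methylation, signals as deposited gave -0.31, the median over probe sets -0.32 and leaving out shared probe sets -0.29, against -0.44 as reported. For nucleolar and snoRNP proteins, the median over probe sets gave -0.32 and leaving out shared ones -0.29, and RNA polymerase I then stood at -0.67. Without shared probe sets Nop56 turned to 0.19 and Snhg10 became the 1 gene at least 2-fold higher. The 4 genes at least 2-fold lower became 45 as deposited, 2 with the higher floor (Nob1 and Nop56), 24 at a threshold of 1.5 and 0 at 3. As deposited, 2877 of all measured genes were 2-fold lower and 50 higher, against 188 and 360 as reported. Centring on the median, loess and no floor moved none of the 72 genes by more than the SD between probe sets. The median over probe sets moved 7, leaving out shared ones 7 of the 65 genes left, and the higher floor 4 of 53. The causes of these shifts were not tested beyond what each setting leaves out. No paired analysis was possible because there is 1 array per condition.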

Other observations

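Probe sets that match a host gene and a snoRNA within it did not enter the set. The one for Gas5 and Snord47 had 187 with PP1 and 325 with DMSO, a log2 ratio of -0.80, and the one for Snhg8 and Snora24 had 3019 with PP1 and 2838 with DMSO, a ratio of 0.09, where the probe set of Snhg8 alone gave -0.39. RNA polymerase I has further subunits that the annotation lists under older symbols, picked here after their values were seen. Cd3eap was at -0.58 (74.9 with PP1 and 112 with DMSO), Twistnb at -0.14 with 3 probe sets up to 0.39, and Znrd1 at -0.14.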
